A study of Mus musculus with 17 samples.

Results

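Activin and TGF-beta ligand genes, 1 antagonist and 4 intracellular feedback genes were followed through the PDGF response of NIH 3T3 cells, an established mouse embryonic fibroblast line. The 10 genes are Inhba, Inhbb, Fst, Tgfb1, Tgfb2, Tgfb3, Smad6, Smad7, Skil and Tgif1. They were chosen by name, with earlier results of these data known, and every probe set annotated to exactly 1 of them was taken. This gave 14 of 22690 probe sets in a table of 8 arrays and 11 of 12488 in a table of 9 arrays, for 10 of the 12637 genes named in the tables. After the dimmest probe sets of each table were left out, 13 and 8 of these could be tested. The probe sets not tested were the dimmest of 3 for Tgfb2 in the 8-array table, and those of Fst and Inhbb and the dimmer of 2 for Tgfb3 in the 9-array table.

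The 17 arrays come from 3 experiments on quiescent cells, with 1 array per condition in each. The Src experiment (8-array table) compared vehicle, SU6656 at 2 µM, UO126 at 10 µM and LY294002 at 7.5 µM, each without PDGF and with PDGF at 25 ng/ml for 1 h. The MEK experiment compared untreated cells, UO126 at 10 µM and PD98059 at 7.5 µM, each without and with PDGF at 25 ng/ml, for a time that the labels do not give. A repeat of the Src experiment had vehicle, PDGF, and PDGF with SU6656, and makes up the 9-array table together with the MEK experiment. PDGF is a fibroblast mitogen. Src family kinases are inhibited by SU6656, PI3K by LY294002, and MEK, the activating kinase of ERK, by either UO126 or PD98059. The comparisons ask which of the 10 genes PDGF altered and whether an inhibitor changed the signal. A change of the PDGF response itself was tested only for MEK inhibition in the 9-array table. The labels do not say whether separate cultures were used, so p-values describe the spread among these arrays only, and that spread may be technical.

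TGF-beta and activin bind pairs of serine-threonine kinase receptors that phosphorylate SMAD2 and SMAD3, which enter the nucleus with SMAD4 and regulate transcription. In fibroblasts the pathway is known for its control of matrix synthesis and proliferation. It is held in check by secreted antagonists such as follistatin, by the inhibitory SMADs, and by nuclear corepressors that bind the SMAD complex.

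RefSeq windows of 250 bases before an annotated transcript start (GRCm38.p6), matched by symbol, were used for 6 of the 10 genes, with 5 windows for Tgif1. The other 4 genes had no window or were left out. Windows are shown for Inhba and Tgif1, which had the largest positive PDGF effects, and for Smad6 and Inhbb. The latter 2 had a probe set lower on every PDGF array of the Src experiment than on the others (for Inhbb the brighter of 2). Each runs 5′ to 3′ on the gene's strand, and capitals mark CAGAC (the SMAD-binding element core) and GGGCGG (a GC box) on either strand. The Tgif1 window is the only 1 of its 5 with matches to both, and was chosen for that. The windows lie at chr13:16011601-16011850 (plus strand, Inhba), chr17:70849791-70850040 (minus strand, Tgif1), chr9:64022060-64022309 (minus strand, Smad6) and chr1:119422249-119422498 (minus strand, Inhbb).
Inhba: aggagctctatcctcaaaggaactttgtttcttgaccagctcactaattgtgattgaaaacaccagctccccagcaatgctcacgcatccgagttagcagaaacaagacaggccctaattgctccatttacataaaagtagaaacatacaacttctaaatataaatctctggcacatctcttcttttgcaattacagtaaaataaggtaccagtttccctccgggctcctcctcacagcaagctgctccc
Tgif1: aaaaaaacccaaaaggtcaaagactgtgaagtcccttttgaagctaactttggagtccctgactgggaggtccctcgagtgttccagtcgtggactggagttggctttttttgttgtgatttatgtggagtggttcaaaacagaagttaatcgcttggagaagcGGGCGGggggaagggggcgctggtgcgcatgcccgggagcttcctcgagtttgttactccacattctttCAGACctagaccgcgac
Smad6: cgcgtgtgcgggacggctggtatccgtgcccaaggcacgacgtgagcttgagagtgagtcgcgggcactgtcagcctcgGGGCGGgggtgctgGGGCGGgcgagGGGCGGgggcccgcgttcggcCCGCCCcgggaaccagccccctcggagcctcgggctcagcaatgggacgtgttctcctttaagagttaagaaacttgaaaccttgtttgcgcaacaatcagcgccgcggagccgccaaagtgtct
Inhbb: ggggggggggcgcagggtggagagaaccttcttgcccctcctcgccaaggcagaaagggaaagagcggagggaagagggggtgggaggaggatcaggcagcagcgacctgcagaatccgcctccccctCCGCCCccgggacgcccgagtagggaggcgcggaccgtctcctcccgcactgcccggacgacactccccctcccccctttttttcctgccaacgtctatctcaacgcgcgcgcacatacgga
The Inhba window, with 43.2% G and C, held neither motif. The Smad6 window, with 66.8% G and C, held 4 GC boxes and no CAGAC. Over all 32851 windows of this length, 42.2% held CAGAC and 32.7% held GGGCGG, so a match to either is common. None of the 10 windows of these genes held TGACGTCA (the cAMP response element, in 1.55% of all windows), TGANTCA (AP-1, 6.75%), GTCTAGAC (0.167%), GCGGGGGCG (EGR, 2.57%) or a CArG box (1.47%), searched on both strands. TGACG, which lies within TGACGTCA, was in 17.8% of all windows and matched once, in that of Tgfb2. These matches describe the letters of the windows only.

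With PDGF, 4 of the 10 genes rose in at least 1 table and 1 fell. Tgif1, Skil and Smad7 rose and Inhbb fell in the 8-array table (Skil and Inhbb at the brighter of 2 probe sets), and Inhba and Tgif1 rose in the 9-array table. The PDGF effect was fitted with limma over 4 pairs of arrays per table, the 2 arrays of a pair sharing experiment and inhibitor. Probe sets passed at a Benjamini-Hochberg adjusted p under 0.05 over all probe sets tested. Within the 8-array table, 3 of 13 member probe sets rose, beside 2.51% of all 15838 tested, and 1 of 13 fell, beside 0.808%. Within the 9-array table, 2 of 8 rose, beside 1.46% of 8695, and 0 fell, beside 0.265%. At an unadjusted p under 0.05 there were 7 of 13, beside 16.3% of all probe sets, and 5 of 8, beside 13.3%. The members were chosen with earlier results of these data known, so such shares, here and below, are a description only. The median PDGF effect of the members on the log2 scale was -0.02 in the 8-array table and 0.67 in the 9-array table, where that over all probe sets tested was -0.03 in both. Effects are on the scale of log2 of the quantile-normalised signal plus 36.3 (8-array table) or 21.2 (9-array table), which understates changes of dim probe sets.

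**Figure D1:**
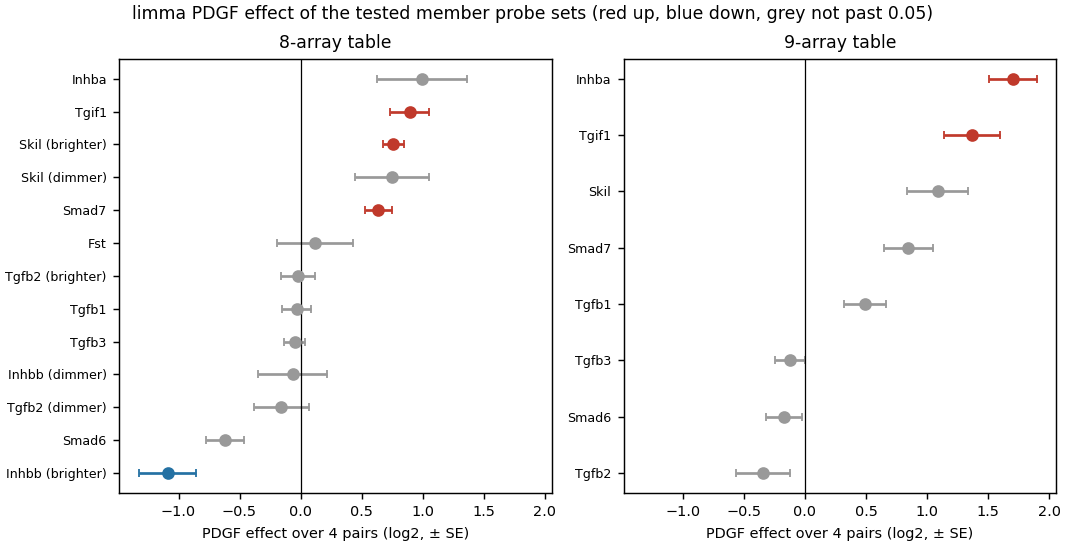
PDGF effect (log2, horizontal axis) of each tested member probe set from the limma fit over 4 pairs, with bars for the standard error, in the 8-array table (left) and the 9-array table (right). Inhba and Tgif1 have the largest positive effects in the 9-array table (1.70 and 1.37), and the brighter Inhbb probe set has the lowest effect (-1.09) in the 8-array table.

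Inhba encodes the beta A subunit, which dimerises to form activin A. In the MEK experiment its deposited signal was 268.4 on the untreated array, 360.1 with UO126 and 250.8 with PD98059, against 1106.7, 877.4 and 635.7 with PDGF in the same order. In the repeat it was 228.0 with vehicle, 1173.4 with PDGF and 452.6 with PDGF and SU6656. All PDGF arrays of both experiments were above all arrays without PDGF. The limma effect in this table was 1.70 (SE 0.19, adjusted p = 0.000812), with an increase in 4 of 4 pairs, and it passed in every alternative fit that was run.

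The Inhba signal of the Src experiment was 300.1 with vehicle, 377.0 with LY294002, 356.8 with SU6656 and 63.7 with UO126. With PDGF it was 421.7 alone, 729.2 with LY294002, 298.9 with SU6656 and 558.2 with UO126. The groups overlapped, since PDGF with SU6656 was below the SU6656 and LY294002 arrays, and the UO126 array stood far below the other arrays without PDGF. The effect was 1.00 (SE 0.37) and did not pass (limma, adjusted p = 0.217). Without the UO126 pair it was 0.41 (limma, adjusted p = 0.379). The UO126 array of the MEK experiment, at 360.1, was not low.

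Inhbb encodes the beta B subunit, found in activin B. Its 2 probe sets of the 8-array table went apart. The brighter one read 227.5 with vehicle, 223.0 with LY294002, 209.7 with SU6656 and 257.6 with UO126. With PDGF it read 74.2 alone, 50.3 with SU6656, 59.0 with UO126 and 171.3 with LY294002. All 4 PDGF arrays were below all 4 others, and the one with LY294002 was the closest to them. Inhbb fell by 1.09 on the log2 scale at this probe set (SE 0.23, limma, adjusted p = 0.0369), and was lower in 4 of 4 pairs. The call was lost when the vehicle pair (adjusted p = 0.141), the SU6656 pair (0.144) or the UO126 pair (0.128) was left out of the limma fit. The effects were then -1.06, -0.98 and -0.96. It held without the LY294002 pair (-1.36, 0.0191). Leaving out a pair also lowered the calls over all probe sets, from 525 to 266, 346, 382 and 342 in the order given. The dimmer one read 58.3 to 126.2 over the 8 arrays, with PDGF and other arrays mixed, and had an effect of -0.06 (SE 0.28, limma, adjusted p = 0.946). In the 9-array table the Inhbb probe set read 1.7 to 22.7 and was not tested.

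Fst encodes follistatin, a secreted protein that binds activin. Its signal in the 8-array table was 26.3 with vehicle, 110.7 with LY294002, 64.4 with SU6656 and 97.5 with UO126, and 79.8, 64.8, 44.2 and 105.8 with PDGF in the same order. PDGF and other arrays were mixed, with the vehicle array the lowest. The effect was 0.12 (limma, adjusted p = 0.902). In the 9-array table it read 9.6 to 74.9 and was too dim to be tested.

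The 3 TGF-beta genes encode the latent, secreted ligands of the TGF-beta receptors, and none passed in either table. Tgfb1 read 437.5 to 469.5 on the untreated, PD98059 and PDGF arrays of the MEK experiment, 314.5 with UO126 alone, and 509.5 and 656.2 where PDGF was combined with UO126 and PD98059. In the repeat it was 137.6 with vehicle, 265.3 with PDGF and 272.9 with PDGF and SU6656. The vehicle array of the repeat thus held the lowest Tgfb1 signal of that table. The effect was 0.49 (SE 0.17, limma, adjusted p = 0.253) there, with an increase in 3 of 4 pairs, and -0.03 (limma, adjusted p = 0.937) in the 8-array table, where the signal was 322.7 to 608.7.

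Tgfb2 read 94.9 to 101.2 on the 3 MEK experiment arrays without PDGF and 62.8 to 83.3 on the 3 with PDGF, which did not overlap. The repeat had 86.0 with vehicle, 60.9 with PDGF and 101.2 with PDGF and SU6656. The effect over the 4 pairs was -0.34 and did not pass (limma, adjusted p = 0.563). The brightest Tgfb2 probe set of the 8-array table lay between 260.5 and 282.0 on 7 arrays and was 187.0 with PDGF and LY294002, and both probe sets tested missed the threshold (-0.02 and -0.16). Tgfb3 read 614.8 to 896.0 in the 8-array table, with effects of -0.05 there (limma, adjusted p = 0.84) and -0.12 in the 9-array table (0.726). Both UO126 arrays of the 8-array table, at 621.7 without and 614.8 with PDGF, were below the other 6 arrays, which lay at 748.0 or above. The second Tgfb3 probe set of the 9-array table read 9.7 to 60.9 and was not tested.

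**Figure D2:**
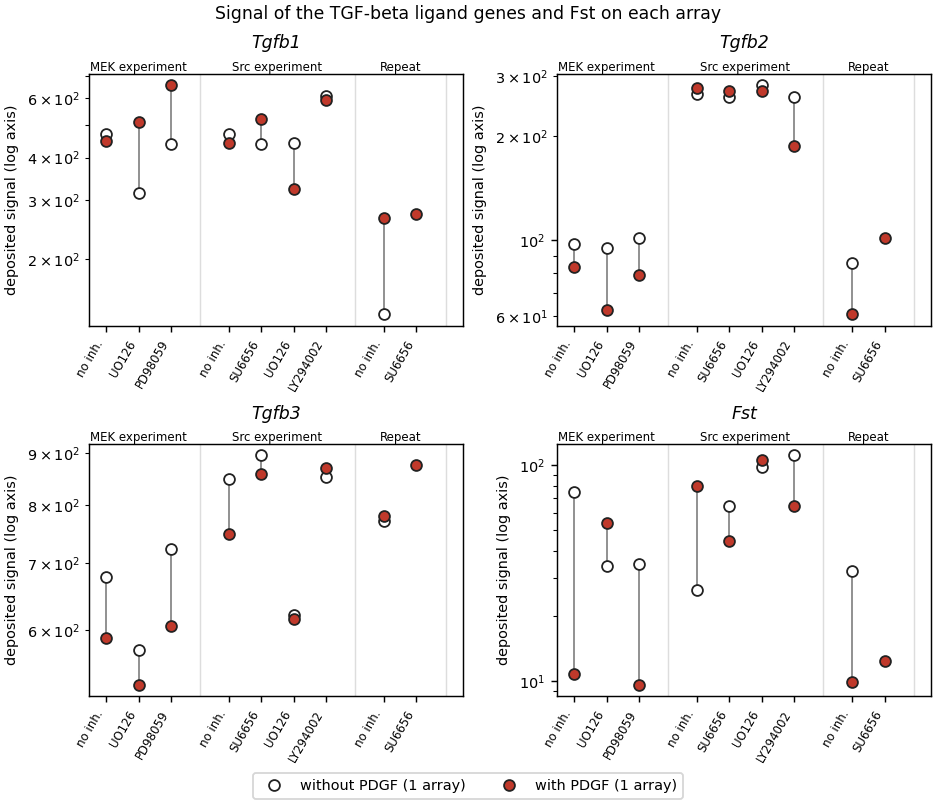
Deposited signal (log axis) of Tgfb1, Tgfb2, Tgfb3 and Fst on every array, with the probe set of highest mean in each table. Open points are arrays without PDGF, red points arrays with PDGF, lines join the 2 arrays of a pair, and each point is 1 array. PDGF and other arrays are mixed for most, while Tgfb3 is lowest with UO126 in the Src experiment (621.7 and 614.8).

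Smad7 encodes the inhibitory SMAD that blocks TGF-beta and activin receptors. Its signal in the Src experiment was 265.7 with vehicle, 304.4 with LY294002, 268.5 with SU6656 and 308.9 with UO126, against 386.3, 553.2, 426.1 and 441.5 with PDGF in the same order. All 4 PDGF arrays were above all 4 others. Smad7 rose by 0.64 on the log2 scale (SE 0.11, limma, adjusted p = 0.0144). The limma call was lost without the vehicle pair (0.67, adjusted p = 0.0605), the LY294002 pair (0.59, 0.0826) or the SU6656 pair (0.63, 0.0586). It held without the UO126 pair (0.67, 0.0367). The effect stayed near 0.64, while calls over all probe sets fell from 525 to between 266 and 382.

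In the MEK experiment Smad7 read 378.1 untreated, 233.4 with UO126 and 147.7 with PD98059, against 440.8, 449.0 and 469.7 with PDGF in the same order. The repeat gave 192.7 with vehicle, 340.0 with PDGF and 328.4 with PDGF and SU6656. In the MEK experiment the levels with PDGF lay close together, and those without PDGF were spread. The 9-array effect of 0.85 (SE 0.20) did not pass (limma, adjusted p = 0.0793), but did without the untreated and PDGF pair of the MEK experiment (1.07, adjusted p = 0.0376). Smad7 was higher with PDGF in all 8 pairs of the 2 tables.

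Smad6 encodes the inhibitory SMAD that acts mainly on BMP signalling. It read 229.1 with vehicle, 192.7 with LY294002, 216.7 with SU6656 and 264.6 with UO126, against 136.3, 111.5, 114.5 and 135.7 with PDGF in the same order, in the Src experiment. All 4 PDGF arrays were below all 4 others, with pair differences of -0.67 to -0.53. The effect of -0.62 (SE 0.16) missed the threshold (limma, adjusted p = 0.0723), and passed with the deposited scaling kept (-0.70, 0.0474) or without the variance trend (0.0437). In the MEK experiment the groups overlapped, at 271.4, 271.8 and 428.1 without PDGF and 214.8, 286.7 and 393.8 with it (no inhibitor, UO126 and PD98059). The 9-array effect was -0.17 (limma, adjusted p = 0.676).

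Skil encodes SnoN, a corepressor that binds SMADs and is itself degraded on TGF-beta signalling. Its brighter probe set in the Src experiment read 656.4 with vehicle, 744.8 with LY294002, 596.8 with SU6656 and 653.9 with UO126. With PDGF it read 1238.5, 1231.0, 1050.6 and 1069.7 in the same order. The PDGF arrays were all above the others, with pair differences between 0.64 and 0.90. Skil rose by 0.76 on the log2 scale (SE 0.09, limma, adjusted p = 0.000959), and this call held in every alternative fit that was run. The dimmer probe set ran from 19.2 with SU6656 to 183.9 with PDGF, its groups overlapped, and its effect of 0.75 (SE 0.30) did not pass (limma, adjusted p = 0.255).

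In the 9-array table the Skil probe set, whose type can match several transcripts, read 37.9 to 73.4 without and 135.0 to 158.5 with PDGF in the MEK experiment. The repeat gave 28.9 with vehicle, 74.0 with PDGF and 107.5 with PDGF and SU6656. The PDGF arrays were the higher in each experiment. The effect of 1.09 (SE 0.25) did not pass (limma, adjusted p = 0.061), but did with the deposited scaling kept (0.0479) or with scaling to a common median (0.0445). Skil over basal was 0.84 ± 0.10 on the log2 scale (SD, n = 3 experiments) at the brightest probe set of each table. This was the smallest SD of the 10 genes for that choice, beside 0.11 for Smad6. In the Src experiment the brighter Skil probe set gave 0.90 and the dimmer one, not used here, 1.19.

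Tgif1 encodes a homeodomain corepressor that binds SMAD2 and SMAD3 and recruits histone deacetylases. Its Src experiment signal was 1153.7 with vehicle, 1063.3 with LY294002, 859.0 with SU6656 and 1248.4 with UO126. With PDGF it read 2659.1, 2625.8, 1766.1 and 1442.0 in the same order. The PDGF arrays were all above the others, although the one with UO126 exceeded the UO126 array by little. Tgif1 rose by 0.89 on the log2 scale (SE 0.16, limma, adjusted p = 0.0147). The limma call was lost without the vehicle pair (0.81, adjusted p = 0.0849), the LY294002 pair (0.76, 0.0739) or the SU6656 pair (0.87, 0.0657). It held without the UO126 pair (1.14, 0.000199). Calls over all probe sets fell too, from 525 to 266, 342, 346 and 382 in the same order.

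In the MEK experiment Tgif1 read 467.8 untreated, 880.0 with UO126 and 1019.5 with PD98059, against 2344.0, 1360.9 and 1881.6 with PDGF in the same order. The repeat gave 906.5 with vehicle, 2985.7 with PDGF and 2083.9 with PDGF and SU6656. Every PDGF array was above every array without PDGF, and the untreated array held the lowest value. Tgif1 rose by 1.37 on the log2 scale in this table (SE 0.23, limma, adjusted p = 0.0124). Without the pair of the repeat the effect was 1.24 and no longer passed (limma, adjusted p = 0.113), where calls over all probe sets fell from 150 to 107.

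**Figure D3:**
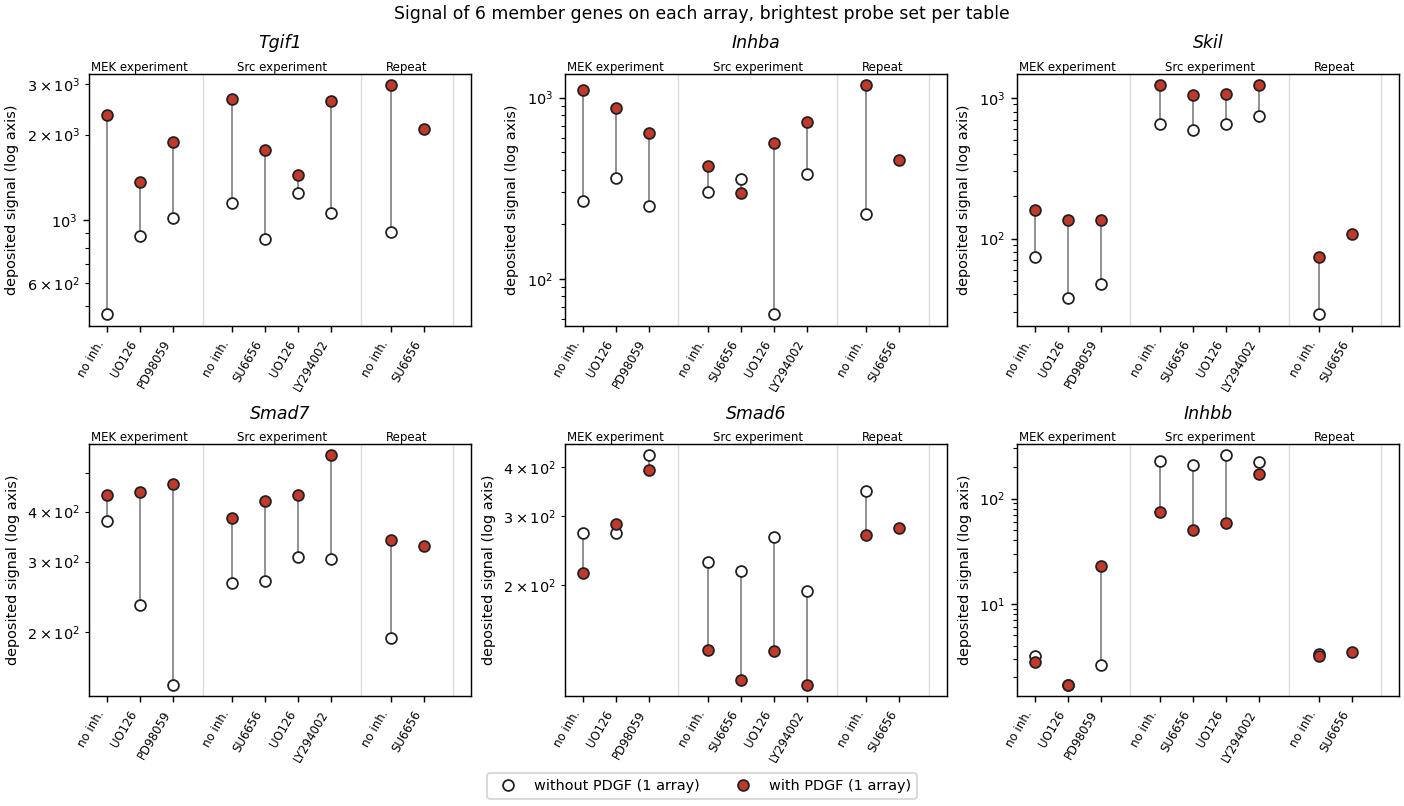
Deposited signal (log axis) of Tgif1, Inhba, Skil, Smad7, Smad6 and Inhbb on every array, with the probe set of highest mean in each table. Open points are arrays without PDGF, red points arrays with PDGF, lines join the 2 arrays of a pair, and each point is 1 array. For Tgif1, Skil and Smad7 each red point lies above its open partner. Levels cannot be compared between the Src experiment and the other 2, since the array designs differ.

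PDGF over basal, without inhibitor, could be set side by side over the 3 experiments as a description. In the order MEK experiment, Src experiment and repeat, Tgif1 had log2 responses of 2.24, 1.16 and 1.75, a mean of 1.72 ± 0.54 (SD, n = 3) or 3.29-fold. Inhba had 1.94, 0.50 and 2.38, a mean of 1.61 ± 0.98 or 3.05-fold. Skil had a 1.79-fold and Smad7 a 1.42-fold mean response (Smad7 0.19, 0.56 and 0.79). These 4 genes were higher in all 3 experiments, and Smad6 was lower in all 3 (-0.35, -0.53 and -0.34). The others had responses of both signs except Inhbb, whose -1.17 in the Src experiment stood beside -0.04 and -0.10 from its dim probe set of the other table. Fst ranged from -1.64 to 0.92, with -1.64 and -0.94 from its untested dim probe set of the 9-array table, and Tgfb1 from -0.10 to 0.85.

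At least 2-fold up were 2 of 8 member probe sets in the MEK experiment (Inhba and Tgif1), beside 3.83% of all probe sets tested. In the Src experiment 2 of 13 were (Tgif1 and the dimmer Skil probe set), beside 2.2%, and in the repeat 2 of 8 (Inhba and Tgif1), beside 3.98%. Over the Src experiment, 3 of 13 member probe sets (Smad7, Tgif1 and the brighter one of Skil) had all 4 PDGF arrays above all 4 others, beside 3.44% of all. A further 2 (Smad6 and the brighter one of Inhbb) had them all below, beside 3.73%. In the MEK experiment 4 of 8 (Inhba, Skil, Smad7 and Tgif1) had all 3 PDGF arrays above, beside 7.33%, and 1 of 8 (Tgfb2) had them below, beside 9.8%.

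**Figure D4:**
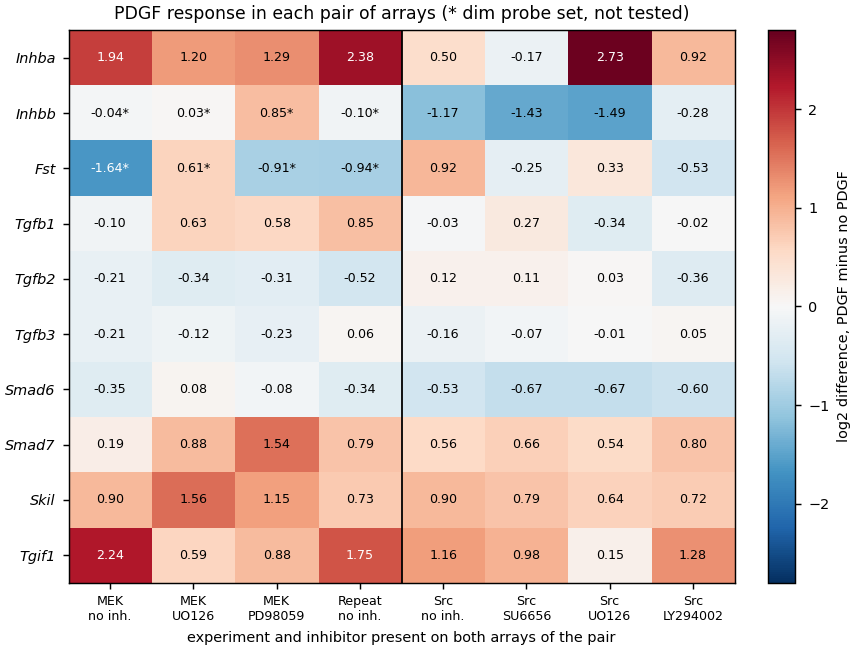
Log2 difference between the arrays with and without PDGF (colour and printed value) for each of the 10 genes (rows) in each of the 8 pairs (columns: experiment and inhibitor on both arrays), with the probe set of highest mean per table. Smad7, Skil and Tgif1 are above 0 in all 8 pairs, and the Tgif1 response is lowest in the pairs with a MEK inhibitor (0.15 to 0.88). Stars mark probe sets too dim to be tested.

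No member passed for any inhibitor. Each inhibitor of the 8-array table was fitted with limma as 2 arrays, without and with PDGF, against the vehicle and PDGF arrays that had no inhibitor. These fits average over both PDGF states, so they cannot show whether an inhibitor changed the PDGF response. For Inhba, UO126 gave -1.86 without PDGF and 0.38 with it, and entered as -0.74. For SU6656, 0 of 13 members passed (0 at an unadjusted p under 0.05), beside 0.107% of all probe sets (8.01% unadjusted). For UO126, 0 of 13 passed (1 unadjusted), beside 0.0442% (9.09% unadjusted), and for LY294002, 0 of 13 (0 unadjusted), beside 0.511% (13.3% unadjusted). The 2 MEK inhibitors were treated as 1 factor in the 9-array table. In this limma fit 0 of 8 members passed under PDGF (2 unadjusted), beside 0% of all probe sets (7.23% unadjusted). Without PDGF 0 of 8 passed (2 unadjusted), beside 0.0115% (7.25% unadjusted). For the interaction of PDGF with MEK inhibition 0 of 8 passed (2 unadjusted), beside 0% (4.86% unadjusted).

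Tgif1 had the smallest adjusted p of the members in the last 2 of these fits. MEK inhibition without PDGF gave 0.83 (SE 0.22, limma, adjusted p = 0.403), and the interaction gave -1.26 (SE 0.28, limma, adjusted p = 0.494). Both use the untreated array, which is the lowest for Tgif1 and had a Gapdh 3′ to 5′ probe ratio of 1.13 where the other 16 arrays had 0.739 to 0.907. The same array enters every PDGF over basal value of the MEK experiment, such as the 0.19 of Smad7. Whether its ratio has a part in those values or in the Tgif1 values was not tested. Without the untreated array the 2 limma values were 0.46 (adjusted p = 0.74) and -1.02 (0.539).

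Differences between single arrays under PDGF, against PDGF alone, were largest for UO126 among the Tgif1 values. UO126 gave -0.78 (MEK) and -0.87 (Src), and PD98059 gave -0.33. SU6656 gave -0.59 (Src) and -0.53 (repeat), and LY294002 gave -0.01. The PDGF response of Tgif1 was 2.24 without inhibitor, 0.59 with UO126 and 0.88 with PD98059 in the MEK experiment. The value of 2.24 uses the untreated array described above, and the UO126 and PD98059 arrays without PDGF were 0.87 and 1.03 above that array. For the Src experiment the PDGF responses were 1.16 without inhibitor, 0.15 with UO126, 0.98 with SU6656 and 1.28 with LY294002. These are differences of 2 single arrays, with no test, and 90% of all probe sets under PDGF lay between -0.71 and 0.72 for UO126 in the MEK experiment and between -0.63 and 0.61 in the Src experiment.

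Inhba under PDGF was lower with SU6656 in both experiments that used it, at -1.40 in the repeat and -0.45 in the Src experiment. It was -0.33 with UO126 and -0.78 with PD98059 in the MEK experiment, but 0.38 with UO126 and 0.72 with LY294002 in the Src experiment, so the sign for UO126 differed between experiments. MEK inhibition under PDGF gave -0.67 (SE 0.27, limma, adjusted p = 0.639). Skil under PDGF lay between -0.22 and -0.01 for the 3 inhibitors in the Src experiment at the brighter probe set and between -0.57 and -0.41 at the dimmer one, but was 0.52 with SU6656 in the repeat. Smad7 under PDGF lay between 0.13 and 0.45 in the Src experiment. For the brighter Inhbb probe set, LY294002 under PDGF gave 0.91, where SU6656 gave -0.36 and UO126 -0.15. The dimmer one went the other way with LY294002 (-0.64), and had -0.67 with SU6656 and -0.39 with UO126. Tgfb3 had the smallest p of the members for UO126 in the 8-array table (-0.33, SE 0.12, limma, adjusted p = 0.457).

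The other genes of the pathway were read from lists, each at its brightest probe set. Of receptors, Eng, the co-receptor endoglin, fell by 1.29 on the log2 scale in the 8-array table (SE 0.24, limma, adjusted p = 0.018), as 1 of 9 tested, and 0 of 10 passed in the 9-array table, where Eng had -0.35. Tgfbr1 and Tgfbr2, the type I and type II TGF-beta receptors, had 0.11 and -0.14 in the 8-array table. Of ligand traps and latency genes, 1 of 13 passed in the 8-array table and 0 of 11 in the 9-array table. The gene that passed was Thbs1 (not among those tested in the 9-array table), which encodes thrombospondin, a protein that can activate latent TGF-beta. It rose by 1.90 (SE 0.09, limma, adjusted p = 6.27e-06). Of SMADs and their regulators 0 of 17 and 0 of 13 passed, with Smad4 at -0.05 and 0.16 and Ski, the relative of Skil, at -0.14 and 0.06. Of other ligands of the family 0 of 6 and 0 of 5 passed. The largest values in these lists that did not pass were those of Inha (-0.76), Smad3 (0.65) and Ltbp3 (-0.59) in the 9-array table. The 8-array table gave 0.03, -0.22 and 0.11 for these genes.

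A further list, also chosen with earlier results of these data known, held transcripts known to respond to TGF-beta or BMP. The 8-array table had 10 of 26 that rose and 0 that fell, with a list median of 0.28, and the 9-array table had 9 of 25 that rose and 0 that fell, with a median of 0.16. Over all probe sets tested, 2.51% and 1.46% rose, and the median was -0.03 in both. In both tables Ccn2, Ccn1, Klf10, Junb, Bhlhe40, Sphk1 and Gadd45b rose. Ccn2, a matricellular protein gene, had 3.13 and 1.84, and Klf10, a TGF-beta inducible zinc finger gene, had 0.93 and 1.10. Cdkn1a, Tagln and Has2 rose in the 8-array table (0.80, 0.40 and 0.43) and Snai1 and Id1 in the 9-array table (0.71 and 0.75). They did not pass in the other table. There Cdkn1a, Tagln and Has2 had 0.65, -0.12 and 0.29, and Snai1 and Id1 had 0.66 and 0.60. Several genes of this list, such as Junb, are immediate-early genes of growth factors too. The collagen gene Col1a1 had -0.04 and -0.03. No gene of these lists passed in an inhibitor fit.

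Genes with the pattern most like that of a member were taken by Pearson's r of log2 values over the arrays of a table, as a description, since many genes share the same few arrays. For Inhba over the 8 arrays these were Rasa1 (r = 0.98), Lamp2 (0.975) and Myh9 (0.956), among 9217 genes. Over the 9 arrays, with each experiment's mean subtracted and among 6365 genes, they were Retreg1 (0.984), Cdc73 (0.968) and Phlda1 (0.96). For Tgif1 they were Prkg2 (0.975), Srsf5 (0.967) and S1pr3 (0.962) over the 8 arrays and Ifrd1 (0.982), Tiparp (0.967) and Ereg (0.967) over the 9. Inhbb over the 8 arrays was most like Olfr749 (0.986), Casp2 (0.981) and Ccng2 (0.976), and Skil over the 9 was most like Abcf3 (0.982), St6galnac4 (0.953) and Metap1 (0.952). No gene was named for more than 1 member. For Inhba the UO126 array without PDGF, at 63.7, stood far below the other arrays of the 8-array table (298.9 to 729.2). The r values of Inhba over the 8 arrays may thus rest largely on that array, which was not tested.

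Medians per array ranged from 174.7 to 198.4 signal units (8-array table) and from 133.7 to 156.1 (9-array table), and precision is limited by the small number of arrays. Of 13 fibroblast markers, 11 of 12 measured in the 8-array table and 12 of 12 in the 9-array table passed the filter on dim probe sets, and none passed the test with PDGF. Macrophage and leukocyte markers had 3 and 2 of 6 measured above that filter. Among epithelial and endothelial markers, Cldn3 (1.42) rose and Eng fell with PDGF in the 8-array table, where the summed signals of these lists were 415.9 to 776.2 and 384.5 to 759.7 over the arrays. Their part in the member values was not tested. The 5 genes used to check the PDGF treatment (Egr1, Fos, Junb, Dusp6 and Ptgs2) rose in both tables. In each inhibitor fit 0 of these 5 passed. Their median values ran from -1.02 (interaction of PDGF with MEK inhibition) to 0.45 (LY294002). That 0 members passed in those fits thus carries little information on inhibitor effects.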

How the data were processed

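RNA of NIH 3T3 cells was measured on 17 arrays, and groups follow the sample labels. Each deposited value is a linear intensity of 1 probe set on 1 array. With 2% of probe sets trimmed from both ends, array means ran from 500.2 to 500.4, so the deposited intensity already carried a scaling to a common mean. The software behind it is not given in the sources used here, nor is a genome build.

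Genes were named from the platform's annotation, and symbols were updated through Entrez IDs against a RefSeq table (GRCm38.p6). Control probe sets (64 and 66) were left out. Values were quantile normalised within each table and log2 transformed after the 20th percentile of the table was added. Probe sets in the lowest 30% by mean were then left out. The tables were never tested together.

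The limma package (version 3.58.1, R 4.3.3) was used for all fits, with moderated variances that follow the mean signal. Adjustment was by Benjamini-Hochberg over all probe sets tested, at a threshold of 0.05. The pair was a block in the PDGF fits, because both of its arrays share experiment and inhibitor by design. The residual of the PDGF fits holds differences in PDGF effect between pairs. In the inhibitor fits of the 8-array table no arrays were coded alike. The residual there holds differences in PDGF effect between inhibitors, or inhibitor and none, so a changed PDGF response also widens the error. In the 9-array table it holds differences between UO126 and PD98059, which were coded alike, and in PDGF effect between experiments. In none of these fits is the residual a spread of replicates. The procedure was tested on simulated data with known changes and independent noise of the same size for every probe set. That setting is simpler than these data, so it does not give their error rates.

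The members and lists were chosen with earlier results of these data known. All members were named. From each list, the genes that passed were named. Up to 3 others per list with the largest values were planned too, but only some of those are given. A few well-known genes were added after their values were seen. For the 3 members with the largest PDGF effect per table, the 3 most alike genes were named. Alternatives changed normalisation, pseudocount, filter, variance trend, probe set choice, the pair block and the arrays included.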

Additional observations from a re-analysis of the deposited data

How the results depend on the processing

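In the 8-array table, 4 member probe sets passed for PDGF, where 525 of all probe sets did. With the deposited scaling kept this count was 5 (507 of all). It was 3 with a stricter filter on dim probe sets (590) or without the pair block (241). It was 2 with no filter on dim probe sets (Skil and Smad7, 357) and 2 without the variance trend (Skil and Smad6, 175). When 1 pair was left out it was 1 to 3 (266 to 382). For the 9-array table, 2 passed, where 150 of all probe sets did. This was 3 with the deposited scaling kept (158 of all), a common median (155) or the stricter filter (176). It was 1 (Inhba) with no filter (102), without the trend (63) or without the pair block (60). When 1 pair was left out it was 1 to 3 (103 to 113). The cause was not tested. Skil in the 8-array table and Inhba in the 9-array table passed under every alternative run. The inhibitor fits called 0 members under every alternative run. Effects close to 0 changed sign in the 8-array table. With scaling to a common median Tgfb1 had 0.025, the brightest Tgfb2 probe set 0.005 and Tgfb3 0.05. Leaving out 1 pair gave -0.131 to 0.073 for Tgfb1, -0.073 to 0.09 for that Tgfb2 probe set, -0.15 to 0.335 for Fst and -0.245 to 0.154 for the dimmer Inhbb probe set. No paired analysis by replicate number was possible because each group has 1 array, so the pairs are those of the design. Signals near the dim end, as for Fst and the untested probe sets, carry little information on direction.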
